A study of Mus musculus with 2 samples.

Results

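The genes described here are 46 genes of the interferon response and of antigen presentation, read in uterine stromal cell isolates with and without Hand2. They were taken from a named list, and a probe set counted for a gene only where the platform annotation gave that gene alone. With this rule 44 of the 46 genes had at least 1 probe set, 81 probe sets in all, of 18193 genes and 45101 probe sets on the array. Isg15 and Ifi44 had no such probe set and were not analysed here. Of the 44 genes, 29 are interferon-induced genes or their sensors and transcription factors, 10 belong to the MHC class I machinery and 5 to MHC class II.

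Each of the 2 arrays carried RNA pooled over mice of 1 genotype on day 4 of pregnancy. The control mice had the genotype Hand2 Floxed. The Hand2-null mice came from crossing floxed Hand2 mice with PRcre mice, in which Cre recombinase is made wherever the progesterone receptor gene is active, so that Hand2 can be lost from every uterine cell type that makes this receptor. Both arrays list the same mixed background of C57BL/6 and SV129 with Prcre, and the labels do not say whether the control mice carried the Cre allele. The design text speaks of 5 mice per genotype and the extraction protocol of 4. With 1 pool per genotype there is no replicate and no test, and no difference has an error, so each statement below is about these 2 pools.

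Hand2 itself gave 1545 signal units in control and 38.5 in Hand2-null isolates, at least 22.9-fold lower. All 12 stromal markers read here were measured, but so were all 10 epithelial, all 10 smooth muscle and all 6 pan-leukocyte markers, so the isolates were not free of other cells. In such a bulk sample, fewer cells of a type and less RNA per cell cannot be told apart. A signal was called measured at or above a floor, the 60th percentile of each array, which was 64.2 in the control and 67.5 in the Hand2-null array. Ratios are log2 of the Hand2-null over the control signal, with signals under the floor set to it. As the nearest measure of error, probe sets that share a gene differed with a standard deviation (SD) of 0.21 in log2 ratio, or 1.16-fold, over 4065 genes. This spread does not include differences between mice, and 44.1% of all measured genes lay outside it, 20.2% above and the others below, so a ratio beyond it is common on this array. Of the 38 measured members, 14 were above it and 6 below.

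Interferons are cytokines whose receptors act through JAK kinases and STAT factors, and cells release those of type I on sensing viral or microbial nucleic acid. Type I interferons act mostly through a complex that holds Stat2 and Irf9 and binds the interferon-stimulated response element, whereas interferon gamma acts mostly through the gamma-activated site. MHC class I molecules present peptides cut by the proteasome and carried by the Tap transporter, and nearly all nucleated cells make them. MHC class II molecules present peptides from endocytosed protein and are made mainly by dendritic cells, macrophages and B cells, although interferon gamma can induce them in other cells. In the pregnant uterus both classes are of interest because maternal tissue meets the antigens of the conceptus.

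Promoter stretches of members are shown first, because the 3 groups are known for different control sequences. The sequences are from RefSeq, build GRCm38.p6, and 37 of the 46 genes had a promoter there, among them Isg15 and Ifi44. Only the 250 bases before the gene start were searched, on both strands. A member gene counted if any promoter listed for it matched, whereas the share over all is per promoter. The Y box CTGATTGG, a CCAAT motif of MHC promoters, was in both class II genes with a promoter (H2-Aa and H2-Eb1), in 3 of 8 class I genes (H2-D1, Tap1 and Psmb9), in 1 of 27 interferon-induced genes (Irf8), and in 3.83% of all 32851 promoters. In each stretch below it is in capitals, read 5′ to 3′ on the strand of the gene.
H2-Aa: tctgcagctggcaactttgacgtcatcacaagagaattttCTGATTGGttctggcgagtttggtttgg
H2-Eb1: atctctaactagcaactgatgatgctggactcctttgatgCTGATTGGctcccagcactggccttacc
H2-D1: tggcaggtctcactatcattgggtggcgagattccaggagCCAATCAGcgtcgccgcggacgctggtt
Psmb9: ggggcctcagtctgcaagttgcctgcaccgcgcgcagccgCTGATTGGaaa
These lie at chr17:34287847-34287914 on the minus strand for H2-Aa, chr17:34305765-34305832 on the plus strand for H2-Eb1, chr17:35263001-35263068 on the plus strand for H2-D1 and chr17:34187331-34187381 on the minus strand for Psmb9. The Y box of H2-D1 reads in the opposite direction. Psmb9 and Tap1 start back to back and share 275 bases of the tabulated promoters, so the same Y box counts for both.

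The core of the interferon-stimulated response element, searched as GAAA, any 2 bases and GAAA again, was in 12 of 27 interferon-induced genes, in 1 of 8 class I genes (B2m) and in neither class II gene, against 2.98% of all promoters. The gamma-activated site, searched as TTCNNNGAA, was in 6 of the 27, in 1 class I gene (Psmb8) and in neither class II gene, against 7.02%. Bst2, Igtp and Oas1a held both motifs, which overlapped in Bst2, and Irf8 held a gamma-activated site and a Y box that did not overlap. The Ifit1, Ifit3, Igtp and Irgm1 stretches are shown because these genes lie on opposite sides of the comparison below while all hold the response element core, which is in capitals. Irf1 is shown for its gamma-activated site, also in capitals.
Ifit1: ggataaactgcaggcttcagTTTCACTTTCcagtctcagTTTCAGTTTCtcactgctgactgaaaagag
Ifit3: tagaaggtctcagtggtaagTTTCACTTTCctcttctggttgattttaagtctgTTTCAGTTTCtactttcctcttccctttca
Igtp: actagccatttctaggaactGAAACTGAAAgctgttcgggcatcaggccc
Irgm1: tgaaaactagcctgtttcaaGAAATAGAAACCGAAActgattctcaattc
Irf1: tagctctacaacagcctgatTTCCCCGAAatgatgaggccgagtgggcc
Their positions are chr19:34640765-34640833 (Ifit1, plus strand), chr19:34583353-34583436 (Ifit3, plus strand), chr11:58199502-58199551 (Igtp, plus strand), chr11:48871421-48871470 (Irgm1, minus strand) and chr11:53769904-53769952 (Irf1, plus strand). The element reads on the opposite strand in both Ifit promoters, and 2 cores overlap in Irgm1. A match is a run of letters and does not show that a factor binds there.

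The comparison asked how these genes differed in the isolates when Hand2 was ablated. MHC class II was higher in the Hand2-null array in every measured gene, by 1.28 to 1.46-fold on the brightest probe set of each. Over all measured class II probe sets the range was 1.18 to 1.58-fold. MHC class I was within 1.29-fold in every gene by the probe set that stands for it, the brightest of each gene. The interferon-induced genes were mixed: Ifit2, Ifit3 and Irf1 were more than 1.5-fold higher, and Igtp, a GTPase induced by interferon gamma, was 1.60-fold lower. None of the 38 measured members reached 2-fold in either direction, against 2.73% of the 10371 measured genes, 1.99% higher and 0.742% lower. At 1.5-fold, 3 members were higher and 1 lower by the brightest probe set, against 6.21% and 3.33% of all measured genes. Other probe sets of H2-Ab1, at 1.55 and 1.58-fold, and of Irf8, at 1.94-fold, also passed 1.5-fold.

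**Figure D1:**
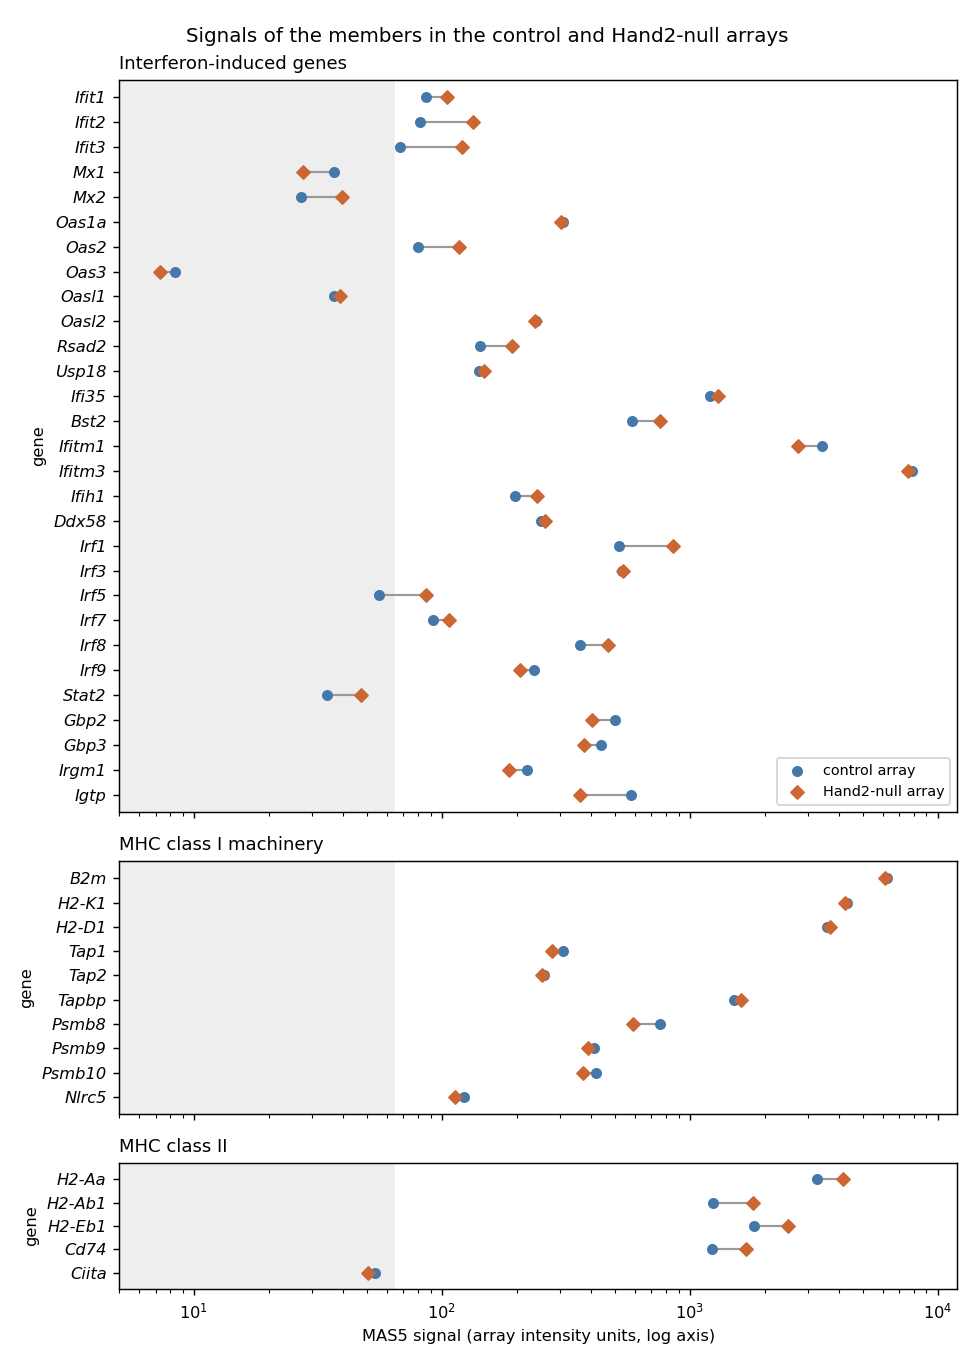
MAS5 signal (log axis) of the probe set that stands for each of the 44 genes, with a circle for the control and a diamond for the Hand2-null array and the range under the lower floor of 64.2 in grey. The diamonds lie to the right for H2-Aa, H2-Ab1, H2-Eb1 and Cd74 and nearly on the circles for most class I genes. Signals of different genes are not on a common scale.

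The class II chains gave the most even difference. H2-Aa, the alpha chain of I-A, gave 3250.3 signal units in control and 4145 in Hand2-null isolates, a log2 ratio of 0.35. Its other 3 probe sets had ratios of 0.23, 0.55 and 0.51. H2-Ab1, the I-A beta chain that pairs with H2-Aa, had signals of 1236 and 1798, a ratio of 0.54, with 0.64 and 0.66 in its other probe sets. All 7 probe sets of this pair were thus higher in the Hand2-null array.

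H2-Eb1, the beta chain of I-E, had signals of 1808 and 2485, for a log2 ratio of 0.46. Cd74, the invariant chain that fills the class II groove until peptide is loaded, had 1227 and 1690.2, also 0.46. All 9 measured class II probe sets were therefore higher in the Hand2-null array, with ratios of 0.23 to 0.66, each above the SD of 0.21 between probe sets, as were 20.2% of all measured genes. The median over the 4 genes was 0.46, or 1.38-fold, against -0.03 over all measured genes. Between 7.07% and 12.8% of all measured genes had a ratio above those of the 4 genes, so the size of the difference was not rare on this array.

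Ciita, the transactivator that class II transcription depends on, was under the floor in both arrays, at 53.9 signal units in control and 50.2 in Hand2-null isolates. Its other 2 probe sets were also under the floor, so no difference can be given for it. Probe sets with the suffixes _s_at, _x_at and _a_at can bind transcripts of several genes or forms, and without them H2-Eb1 was the only class II gene with a measured value.

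Further class II genes were read from a separate list, of which 8 were measured and 6 were higher. H2-DMb2, a chain of the peptide exchange factor H2-DM, had signals of 78.2 and 146, for a log2 ratio of 0.90, on a probe set near the floor, while its other probe sets were under the floor in both arrays. With a pseudo-signal it was at 0.58, and its measured probe set has the suffix _x_at. H2-DMa, the partner chain, was at 0.25 and H2-Oa, a chain of the inhibitor H2-O, at 0.46 with signals of 66.3 and 91.2. Of the others that were higher, H2-Ob and Cd86 passed the floor in the Hand2-null array alone, and Ifi30 was at 0.08. Against these, Ctss, the cathepsin that trims the invariant chain, had 1612 and 1326, a ratio of -0.28. Lgmn was lower too, with 717 and 626, a ratio of -0.19. All of these genes but H2-DMb2 were named after their values were seen.

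**Figure D2:**
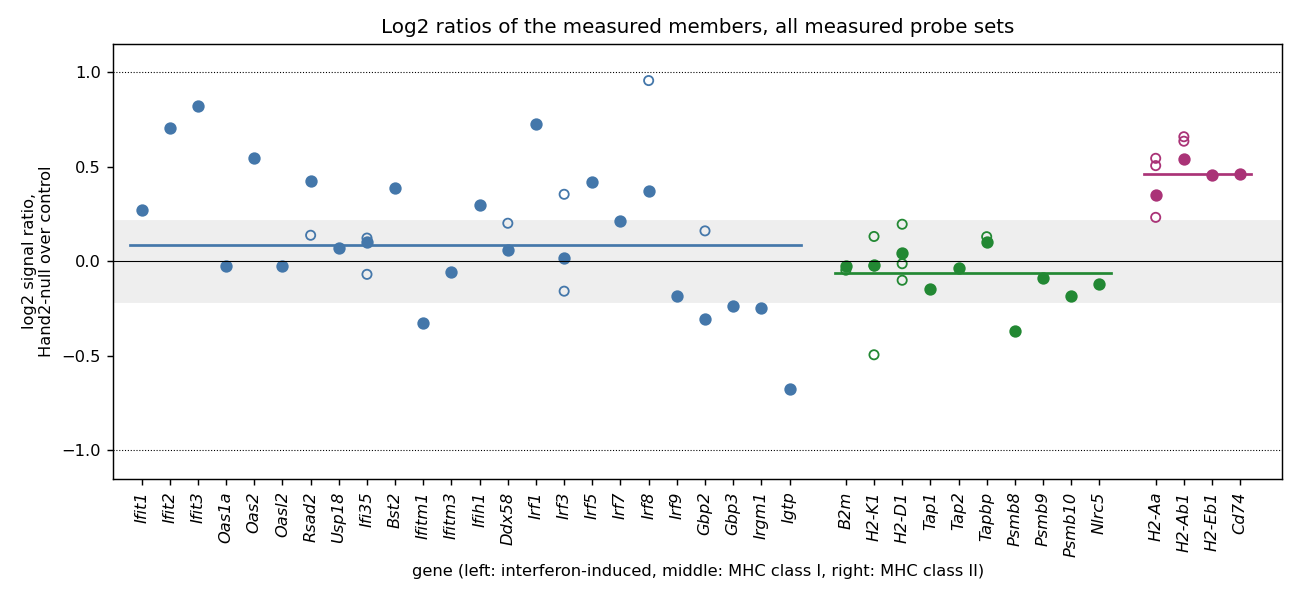
Log2 signal ratio, Hand2-null over control, of each measured member. Filled points are the probe set that stands for the gene, open points its other measured probe sets, horizontal bars the group medians of 0.09, -0.06 and 0.46, the grey band the SD of 0.21 between probe sets of a gene and dotted lines 2-fold. All class II points lie above the band, whereas the interferon-induced genes spread to both sides.

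Cell types that make class II molecules were read beside these values. Signals of different genes are not on a common scale, so sums are led by the brightest probe sets and do not measure how many cells were present. The 4 class II genes together had a summed signal of 7521 in control and 10118 in Hand2-null isolates. The 19 macrophage and myeloid markers with a probe set summed to 14876 and 14447, and 6 of the 18 measured ones were higher and 12 lower, and their median log2 ratio was -0.06. Cx3cr1, the fractalkine receptor, was at -0.63, and Fcgr1, an Fc receptor, at -0.56. Csf1r, the macrophage growth factor receptor, was at 0.16, with its other probe sets at 0.33 and 0.31. Clec10a, a lectin of macrophages and dendritic cells, had signals of 98.2 and 224 and was 2.28-fold higher, the only marker of that list at 2-fold.

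The 6 pan-leukocyte markers summed to 3387 and 3463, with a median ratio of 0.02. Of the 9 dendritic cell markers with a probe set, 4 were measured, with a median ratio of 0.20. Cd209a was at 0.52 (signals of 77.5 and 111), Itgax at 0.38 (83.0 and 108), Cd24a, which epithelial cells make too, at 0.02 and Zbtb46 at -0.12, while Flt3, Xcr1, Batf3, Ccr7 and Siglech were under the floor in both arrays. All 6 B cell markers with a probe set were under the floor in both arrays. Epithelial markers summed to 8384 and 9633, with a median ratio of 0.18 and 8 of 10 higher. Smooth muscle markers summed to 18461 and 42011, with a median of at least 1.46, as Myocd was under the floor in control, and all 10 higher. Mesothelial markers summed to 891 and 1214, with a median of at least 0.65 and 5 of 6 higher. Msln, Lrrn4, Krt5 and Upk1b were under the floor in control, so their ratios are lower bounds. Wt1, the brightest of them, had signals of 633 and 541. The part of Clec10a-positive, dendritic, epithelial, mesothelial and smooth muscle cells in the class II difference was not tested.

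**Figure D3:**
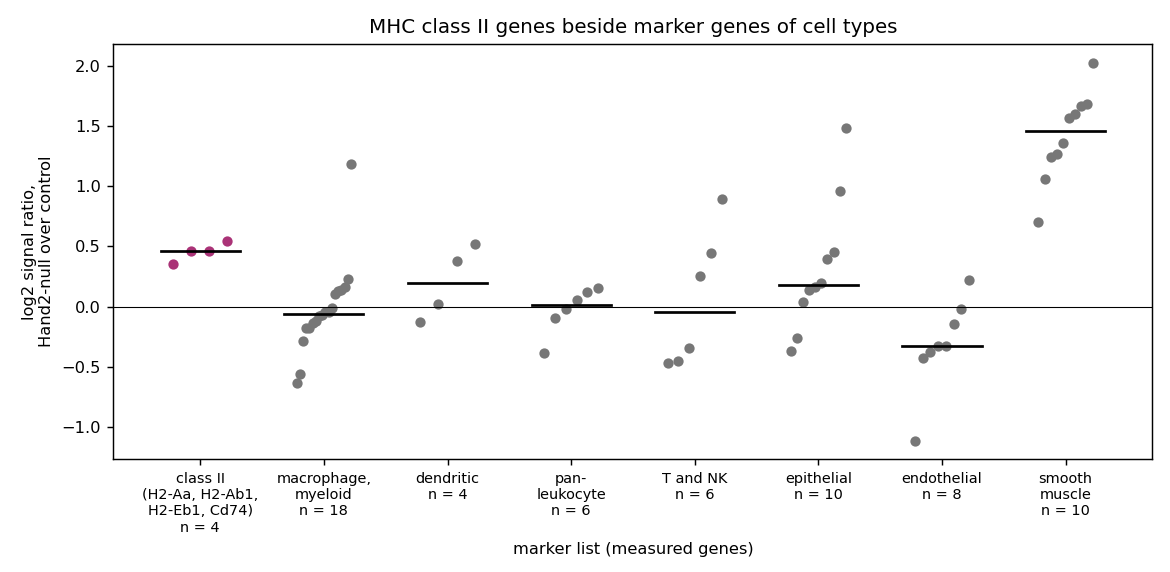
Log2 signal ratio, Hand2-null over control, of the 4 measured class II genes and of the measured markers of 7 cell types, with medians as bars. The class II median of 0.46 stands beside -0.06 for macrophage and myeloid, 0.02 for pan-leukocyte and 1.46 for smooth muscle markers.

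The class I machinery differed little. B2m, the light chain of every class I molecule, had signals of 6222 and 6126, for a log2 ratio of -0.02, with a second probe set at -0.05. H2-K1, a classical heavy chain, had 4285 and 4224, also -0.02, and H2-D1, the other classical heavy chain, had 3572 and 3688, or 0.05. The 8 measured probe sets of these heavy chains ranged from -0.49 to 0.20, and 7 of them have the suffix _x_at, so the H2-K1 and H2-D1 transcripts and those of related class I genes may share signal. The signs of B2m and H2-K1 turned when the arrays were centred on the median ratio, and that of B2m also with quantile normalization.

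Tap1 and Tap2, the subunits of the peptide transporter, had log2 ratios of -0.14 (signals of 306 and 277) and -0.03 (258 and 252). Tapbp, or tapasin, which bridges the transporter and the heavy chain, had 1503 and 1612, a ratio of 0.10, and its second probe set 0.13. Nlrc5, the class I transactivator, had 123 and 113, a ratio of -0.12. All of these lay within the spread between probe sets.

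The 3 catalytic subunits of the immunoproteasome, the proteasome form that interferon gamma induces, had lower signals in the Hand2-null array. Psmb8 went from 759 to 587, a log2 ratio of -0.37, Psmb10 from 419 to 369, or -0.18, and Psmb9 from 412 to 388, or -0.09. Psmb8 alone of the 10 class I genes lay outside the SD of 0.21 between probe sets, whereas 44.1% of all measured genes did. The measured probe set of Psmb8 has the suffix _a_at. Over the group 2 genes were higher and 8 lower, and the median was -0.06, near the -0.03 of all measured genes, of which 55.3% were lower. With the arrays centred on the median ratio 4 were higher and 6 lower, and with quantile normalization 3 and 7.

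Of the further class I genes 13 were measured, 5 higher and 8 lower, with a median of -0.12. None reached 1.5-fold. The chaperones that help fold the heavy chain, calreticulin and calnexin, were named for their signal: Calr had 5506 and 4714, a log2 ratio of -0.22, and Canx 3128 and 2652, a ratio of -0.24, each with its other 2 measured probe sets lower as well.

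Class I and class II genes lie among each other on chromosome 17. From H2-K1 to H2-Eb1 the RefSeq table of build GRCm38.p6 lists 19 protein-coding genes, and 17 were measured. Psmb9, Tap1, Psmb8 and Tap2 follow one another without another gene between them, with log2 ratios of -0.09, -0.14, -0.37 and -0.03. On one side they are bordered by H2-DMb1, which had no probe set of its own, and H2-DMb2, at 0.90 or 0.58 with a pseudo-signal, and on the other by H2-Ob, at 0.21 or more with its control signal of 30.2 under the floor, and then H2-Ab1, H2-Aa and H2-Eb1. The higher class II signals thus lay on both sides of a block of class I processing genes whose ratios were below 0. Of all measured genes 55.3% were below 0, and in the block only Psmb8 lay outside the SD of 0.21 between probe sets. The H2-DMb2 value comes from a probe set near the floor.

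**Figure D4:**
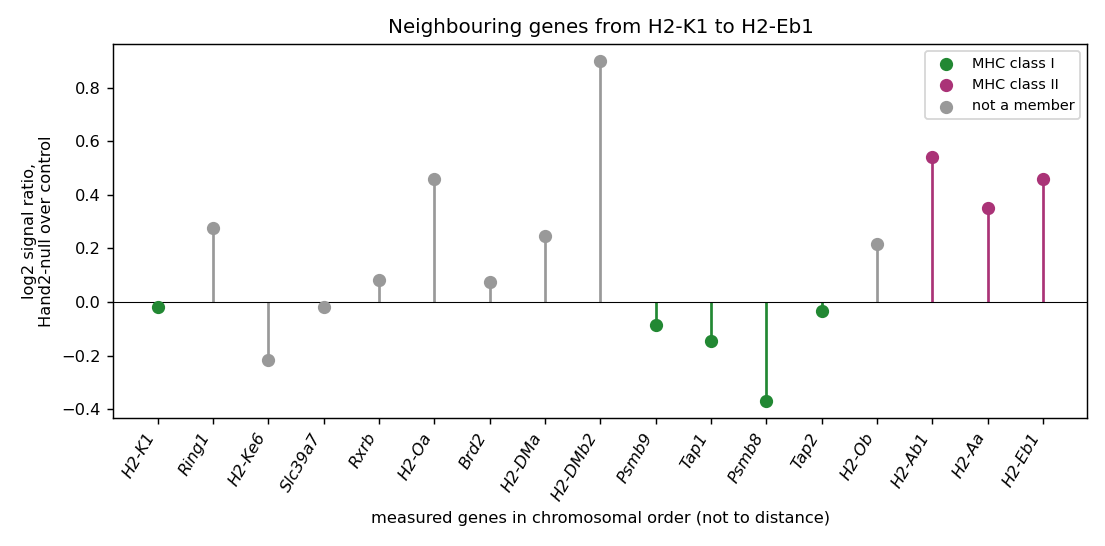
Log2 signal ratio, Hand2-null over control, of the 17 measured genes from H2-K1 to H2-Eb1 in their order on the chromosome, evenly spaced and not to distance. Class I genes (green) lie between -0.37 and -0.02, and class II members (purple) between 0.35 and 0.54.

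Among the interferon-induced genes, 24 of 29 were measured, 15 higher and 9 lower. Their median log2 ratio was 0.09 and their range -0.68 to 0.82. Over all measured genes 44.7% were higher. Centred on the median ratio 17 were higher and 7 lower, and with quantile normalization 16 and 8, but with the floor at the 75th percentile 8 were higher and 9 lower. Mx1, Mx2, Oas3, Oasl1 and Stat2 did not reach the floor in either array and give no difference. Mx1 and Mx2 are antiviral GTPases, and Stat2 is part of the factor that type I interferons activate.

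The IFIT genes, which are among the strongest targets of type I interferon, included the 2 highest ratios among the antiviral effectors. Ifit3 had signals of 68.0 and 120.2, for a log2 ratio of 0.82, and Ifit2 had 81.6 and 133, a ratio of 0.70. Ifit1 had 86.5 and 105, a ratio of 0.27. All 3 were higher in the Hand2-null array, but each rests on 1 probe set near the floor, and with a pseudo-signal in place of the floor Ifit3 and Ifit2 were at 0.50 and 0.46. With the floor at the 75th percentile the median of the 17 interferon-induced genes still measured was -0.02.

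The other antiviral effectors differed among themselves, also within the OAS family. Oas2, a synthetase that activates RNase L, had signals of 80.1 and 117, for a log2 ratio of 0.55, again near the floor, whereas its relatives Oas1a, with 308 and 303, and Oasl2, with 240.4 and 236, were both at -0.02. Rsad2, or viperin, had 143 and 191, a ratio of 0.42, with 0.14 or more in a probe set that passed the floor in the Hand2-null array alone. Bst2, or tetherin, which holds budding virus at the cell surface, had 582 and 761, a ratio of 0.39. Rsad2 and Bst2 were thus higher by more than the spread between probe sets.

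Usp18, which removes Isg15 from proteins and dampens the type I receptor, had signals of 141 and 148, for a log2 ratio of 0.07. Ifi35 was at 0.10, with other probe sets at 0.12 and -0.07. The membrane proteins that block virus entry had ratios below 0: Ifitm1 had 3418 and 2723, a ratio of -0.33, and Ifitm3 had 7871 and 7560.1, a ratio of -0.06, whose sign turned with quantile normalization. Usp18, Ifi35 and Ifitm3 did not leave the spread between probe sets.

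The cytoplasmic RNA sensors were at 0.30 for Ifih1, or MDA5, with signals of 198 and 243, and at 0.06 for Ddx58, or RIG-I, with 249.98 and 260.1 and a second probe set at 0.20. Both were higher, and Ddx58 by less than the SD between probe sets.

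Among the transcription factors, Irf1, which interferon gamma induces directly, gave 518 signal units in control and 857 in Hand2-null isolates, a log2 ratio of 0.73, or 1.65-fold. Irf8, a factor of macrophages and dendritic cells, had 361 and 467, a ratio of 0.37, and its second probe set 166 and 323, a ratio of 0.96. Irf5, another factor of myeloid cells, had 55.7, under the floor, and 85.9, at least 1.34-fold higher, while its second probe set was under the floor in both arrays. Irf1 and both probe sets of Irf8 were therefore higher by more than the spread between probe sets. Irf1 rests on 1 probe set, which has the suffix _a_at.

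Irf7, the amplifier of type I interferon, had signals of 92.0 and 107, for a log2 ratio of 0.21. Irf3, which is present before any stimulus and is activated by the sensors, was at 0.02, with other measured probe sets at 0.35 and -0.16. Irf9, the DNA-binding part of the type I factor, had 234 and 206, a ratio of -0.18. These 3 factors did not differ by more than the spread, apart from the Irf3 probe set at 0.35.

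The GTPases induced mainly by interferon gamma, which take part in the defence against intracellular microbes, were on the other side. Igtp had signals of 578 and 361, for a log2 ratio of -0.68, and 2.26% of all measured genes had a lower ratio. Irgm1, a related GTPase, had 220.3 and 186, a ratio of -0.25, and Gbp3 440.0 and 374, a ratio of -0.24. Gbp2 had 498 and 404, a ratio of -0.30, but its second probe set, which carries no cross-hybridization suffix, had 358 and 399.8, a ratio of 0.16. Igtp, Irgm1 and Gbp3 were thus lower on the 1 probe set each has, and that of Gbp3 has the suffix _a_at. The direction of Gbp2 depends on the probe set.

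Other genes of the IRG and GBP families, to which these GTPases belong, were in the list of further interferon-induced genes. Tgtp1, Gbp4 and Gbp5 there had no probe set of their own, and genes of these families outside the lists were not read. Iigp1 had signals of 957 and 536, for a log2 ratio of -0.84, and -0.89 in its second probe set. Irgm2 had 272 and 170.1, a ratio of -0.68. Ifi47 was at -0.45, Gbp7 at -0.27 and Gbp6 at -0.08 with 0.12 in its second probe set. These last 3 genes, and the grouping of the families, were chosen after the values were seen. All 9 measured genes of these families on the lists, the 4 members included, were lower by the probe set that stands for the gene. Their median was -0.30, against -0.03 over all measured genes, of which 55.3% were lower. The second probe sets of Gbp2 and Gbp6 went the other way, so this count depends on the probe set chosen.

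Over the whole list of further interferon-induced genes, each read by its brightest probe set, 30 were measured, 9 higher and 21 lower, with a median of -0.17. Cxcl10, a chemokine that interferon gamma induces, was the only one more than 1.5-fold higher, with signals of 157 and 294, for a log2 ratio of 0.91, and Iigp1 and Irgm2 were the only ones more than 1.5-fold lower. The median of this list thus lay below 0, and that of the interferon-induced members, 0.09, above it.

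Of the 25 ligands, receptors and signalling proteins with a probe set, 17 were measured. None of these differed by 1.5-fold on its brightest probe set. The interferon genes Ifng, Ifnb1 and Ifna4 were under the floor in both arrays, with Ifng at 24.01 and 14.7. Named for their signal, Socs3, a feedback inhibitor of cytokine receptors, had 1916 and 2440, a log2 ratio of 0.35 with 0.50 and 0.66 in its other probe sets, and Jak1, a kinase shared by all interferon receptors, had 1518 and 1427, a ratio of -0.09. The Socs3 probe set at 0.66, or 1.58-fold, carries no cross-hybridization suffix, whereas both others have the suffix _x_at. In this list 7 genes were higher and 10 lower, and the median was -0.09.

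The members with several measured probe sets numbered 12, and in 7 of them all probe sets had the same sign. The other 5 were Gbp2, H2-D1, H2-K1, Ifi35 and Irf3. Endothelial markers had a median log2 ratio of -0.33, with 7 of 8 lower and summed signals of 2665 and 1983, and T and NK cell markers, whose cells make interferon gamma, had 3 of 6 measured higher and a median of -0.04. Cd3g, a T cell receptor chain, was at 0.89 (signals of 91.0 and 169), Klrk1 at no less than 0.44 and Cd3d at no less than 0.25, against the granule genes Gzma at -0.47, Gzmb at -0.45 and Nkg7 at -0.34. Cd3e, Cd4 and Cd8a were under the floor in both arrays. The part of these cells in the values of the GTPases was not tested.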

How the data were processed

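The authors deposited 1 linear intensity per probe set and array. The submitters' processing notes name MAS5 and Affymetrix Expression Console (version 1). Without the top and bottom 2% of probe sets, both arrays had a mean of 150.001, so each had been scaled to a common level. The sources used here give no genome build. Per the labels' protocols, epithelial clumps were discarded, and stromal cells were released with collagenase, filtered at 70 µm and left to attach for 1 h before RNA was taken.

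Of 45101 probe sets, 64 controls were left out, and the platform annotation listed 1 gene for 34945 of the rest, several for 932 and none for 9160. Each gene was represented by its probe set of highest mean log2 signal. Mismatch subtraction in MAS5 makes ratios of dim probe sets unsteady, hence the floor. No test was made, and the number of arrays limits the precision. The members, the lists and the rule for named genes (every member, and of further lists those at least 1.5-fold apart or else the 2 with the highest signal) were chosen with earlier results of these data known. Alternatives were other scalings, floors, thresholds and probe set choices. The steps were tested on simulated data. Python 3.11.15, numpy 2.4.6, pandas 2.3.3 and matplotlib 3.10.9 were used.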

Additional observations from a re-analysis of the deposited data

How the results depend on the processing

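No paired analysis was possible because each genotype has 1 array. The 3 group medians moved by less than the SD of 0.21 between probe sets under every alternative run, which were centring on the median, quantile normalization, floors at the 50th and 75th percentiles, no floor, a pseudo-signal, averaging the probe sets of a gene, using none with a cross-hybridization suffix, and the mean of a group. The class II median stayed between 0.45 and 0.49, on 1 gene without cross-hybridizing probe sets. The interferon-induced median ranged from -0.02 to 0.22, its lowest value with the floor at the 75th percentile, where Ifit1, Ifit2, Ifit3 and Oas2 were no longer measured. No member reached 2-fold under any of these settings. At a threshold of 1.5-fold 4 interferon-induced genes were counted in place of 0. Without probe sets that can cross-hybridize, Gbp2 was at 0.16, Ifi35 at -0.07 and, of the further genes, Socs3 at 0.66. Irf1, Gbp3 and Psmb8 were among the members no longer measured there. The mean over probe sets put Irf8 at 0.66 and Gbp2 at -0.07.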
